A study of Mus musculus with 2208 samples.

Results

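The Ms4a genes studied here are Ms4a4a, Ms4a4b, Ms4a4c, Ms4a6b, Ms4a6c, Ms4a6d and Ms4a7, 7 neighbouring genes of mouse chromosome 19. They were taken by symbol from a table of 23951 genes, without regard to their values, and 6 of the 7 had a row. Ms4a4a was not analysed here. In the RefSeq gene table of GRCm38.p6 the protein-coding genes of this stretch run in the order Ms4a7, Ms4a4a, Ms4a4c, Ms4a4b, Ms4a6c, Gm8369, Ms4a6b, Ms4a4d and Ms4a6d.

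Ms4a genes encode small proteins that cross the membrane several times and sit beside receptors at the surface of blood and tissue immune cells. The best known relatives are Ms4a1, the B cell antigen CD20, and Ms4a2, the beta chain of the high-affinity IgE receptor of mast cells. The Ms4a4, Ms4a6 and Ms4a7 genes are read mainly in myeloid cells, microglia and other macrophages among them, and their human counterparts lie in a region linked to the risk of Alzheimer's disease. In mice the Ms4a4 and Ms4a6 branches each hold several near copies, made by duplication.

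Cells from the hippocampus of CKp25 mice and of CK littermate controls had been sorted singly by CD11b and CD45, which together mark the myeloid cells of the brain, microglia above all. In CKp25 mice forebrain neurons can be made to produce p25, a shortened form of the Cdk5 activator p35, and neurons then degenerate. As background, the CK controls carry only the transgene that drives the switch, and p25 is made in neurons, not in the sorted cells. Mice were 3 months old before induction (0 weeks), 3 months and 1 or 2 weeks old at 1 and 2 weeks, and 4 months and 2 weeks old at 6 weeks. The groups held 3 mice each, except CKp25 at 6 weeks with 4. No source used here gives the sex of the mice or the day on which each was handled.

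Values were FPKM, which scale fragments by transcript length and library size, made by the authors with a modified Smart-seq2 protocol. A cell was used when at least 1000 genes reached an FPKM of 1, which kept 2028 of 2208 cells, 41 to 96 per mouse. Below, a cell "with" a gene has it at an FPKM of 1 or more, and the level in a mouse is log2(FPKM + 1) averaged over its cells. A difference is CKp25 minus CK in that level, ± the standard error that limma fitted over all 25 mice, with Benjamini-Hochberg adjustment over 9435 genes. On this scale the change of a gene found in few cells is understated. FPKM hold no read counts, so the depth behind a value is unknown. The submitters state a median of 251353 mapped reads per cell over 2183 libraries, and the labels list 2208.

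The sorted cells carried the defining genes of microglia. Each of 12 homeostatic microglia genes was found in 81.8% to 100% of the kept cells, and 123 cells held 3 or more markers of another cell type. Of the kept cells, 9 held 3 or more of 8 monocyte markers and 60 held 2 or more of 8 border macrophage markers. The first well of each mouse, 25 wells in all, stood apart with a median of 10011 genes against 2292 in the other wells, and no source used here says whether those wells held single cells. They stayed in, except where stated.

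Among the kept cells, 36.8% had none of the 6 genes, 37.2% had 1, 17.3% had 2 and the rest had 3 or more. Ms4a6d was found in 676 cells (33.3%), Ms4a6c in 609 (30.0%) and Ms4a6b in 574 (28.3%). Ms4a4c was found in 126 cells (6.21%), Ms4a7 in 65 (3.21%) and Ms4a4b in 5 (0.247%). Of these, 4 genes passed the filter on low values used for the limma fit (10% of the cells or more in 3 mice or more): Ms4a4c, Ms4a6b, Ms4a6c and Ms4a6d. The 3 Ms4a6 genes reached 10% of cells in all 25 mice. Ms4a4c reached it in 6 mice, all of them CKp25 mice at 2 or 6 weeks, so its entry into the fit already rests on the groups in which it was high.

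In FPKM, which are per length, the order in CK mice before induction was Ms4a6d at 57.8 ± 34.1 (SD, n = 3 mice), Ms4a6b at 44.8 ± 14.1, Ms4a6c at 17.5 ± 8.1, Ms4a7 at 11.8 ± 13.2, Ms4a4c at 1.23 ± 1.17 and Ms4a4b at 0.00125 ± 0.00217 as the mean over all cells. Ms4a6d and Ms4a6b overlapped between mice, as did Ms4a6c and Ms4a7 and, at their lowest mice, Ms4a7 and Ms4a4c. At 6 weeks in CKp25 mice the order was Ms4a6d at 65.1 ± 18.4 (SD, n = 4 mice), Ms4a6c at 36.2 ± 14.0, Ms4a6b at 34.1 ± 24.8, Ms4a4c at 29.0 ± 28.6, Ms4a7 at 14.6 ± 10.2 and Ms4a4b at 0.0917 ± 0.183. Ms4a4c, which stood far below the Ms4a6 genes before induction, overlapped all 3 of them at 6 weeks. That holds for mean FPKM, where Ms4a4c ran from 3.58 to 66.3 between mice. As the mean of log2(FPKM + 1), Ms4a4c averaged 0.91 in these mice, against 1.37 for Ms4a6b, 2.23 for Ms4a6c and 2.76 for Ms4a6d.

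**Figure D1:**
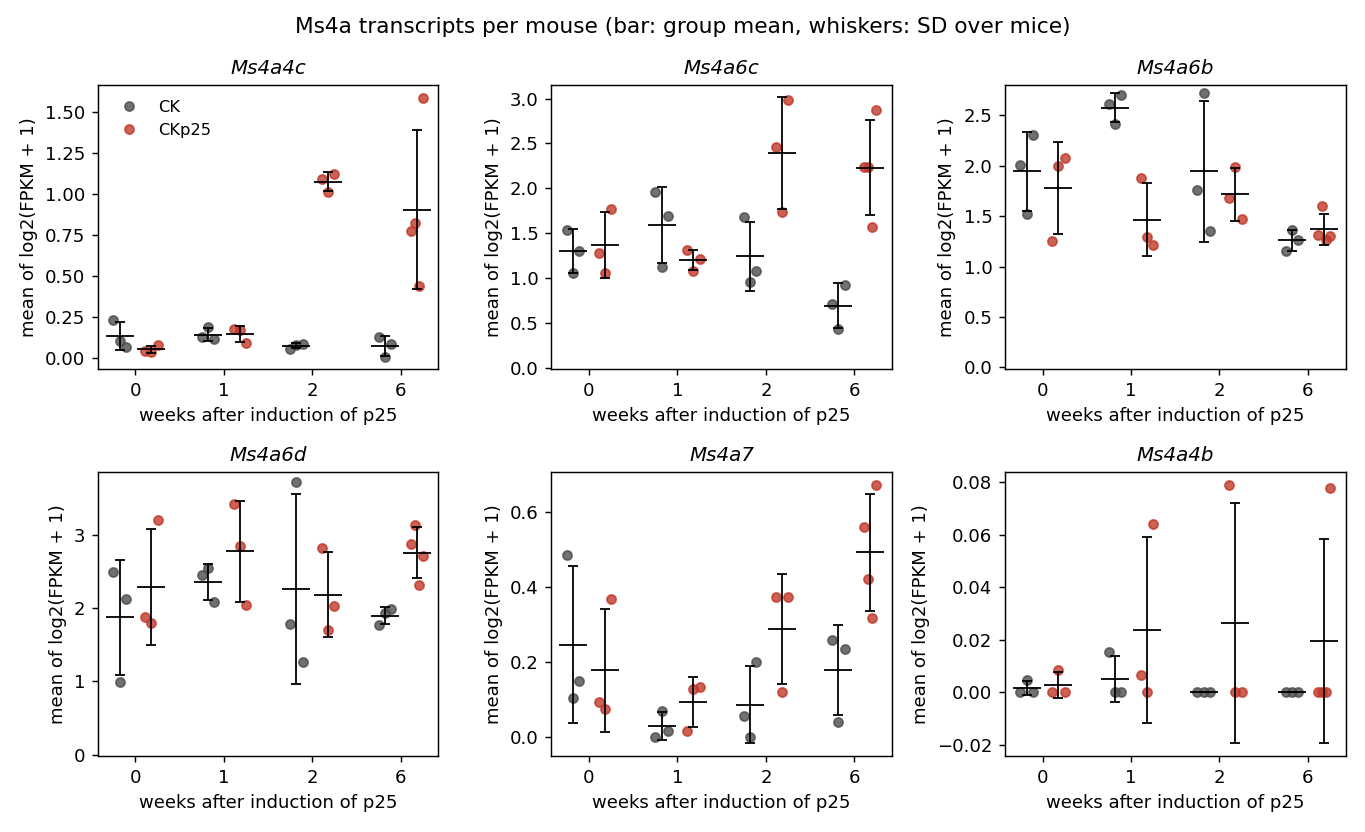
Level of each Ms4a gene, as the mean over cells of log2(FPKM + 1), in each mouse (points) at 0, 1, 2 and 6 weeks after induction in CK (grey) and CKp25 (red) mice, with the group mean and SD over mice as bars; the vertical scale differs between panels. Ms4a4c lies at 0.23 or lower in every CK mouse and between 0.44 and 1.59 in the CKp25 mice of 2 and 6 weeks, while Ms4a4b stays near 0 in every mouse.

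The first question is whether the genes differed between the genotypes before p25 was induced. At 0 weeks none of the 4 tested members passed the threshold, and neither did any other gene (0% of 9435, with 101 genes at an unadjusted p under 0.05). The differences were -0.08 ± 0.15 for Ms4a4c, -0.17 ± 0.32 for Ms4a6b, 0.07 ± 0.32 for Ms4a6c and 0.42 ± 0.47 for Ms4a6d. The week-0 mice therefore give the background of each gene: a spread between mice of 1.05 to 1.77 for Ms4a6c, 1.26 to 2.30 for Ms4a6b and 0.99 to 3.21 for Ms4a6d over both genotypes.

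Ms4a4c, the one Ms4a4 gene with a clear signal, rose in CKp25 mice between 1 and 2 weeks. At 2 weeks its level was 1.10, 1.01 and 1.13 in CKp25 mice 1, 2 and 3, against 0.06, 0.08 and 0.09 in CK mice. The difference was 1.00 ± 0.15 (limma, adjusted p = 2.27e-06, and 0.000899 in the fit of 22291 genes without the filter), and the 2 groups did not overlap. At 6 weeks the CKp25 mice stood at 0.78, 0.82, 0.44 and 1.59 and the CK mice at 0.13, 0.01 and 0.09. That difference was 0.83 ± 0.14 (limma, adjusted p = 2.75e-05, and 0.00397 without the filter), again without overlap, and CKp25 mouse 4 stood highest. At 1 week the groups lay at 0.09 to 0.18 and 0.12 to 0.19, with a difference of 0.00 ± 0.15. Both calls held under all 39 alternative settings of each comparison. The size depended on the scale: a pseudocount of 10 gave 0.47 and 0.44 at 2 and 6 weeks, and log2 of each mouse's mean FPKM gave 3.23 and 3.92.

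The share of cells with the gene rose. Ms4a4c was found in 17 of 94, 18 of 96 and 15 of 68 cells of the 2-week CKp25 mice, which is 18.1%, 18.8% and 22.1%. At 6 weeks it was found in 9.76%, 15.8% and 24.7% of the cells of mice 1, 2 and 4 and in 6 of 52 cells of mouse 3. In the CK mice of all weeks, and in CKp25 mice of 0 and 1 weeks, no mouse went above 4.65% of cells. The difference between the genotypes grew from 1 to 2 weeks by 1.00 ± 0.21 (limma interaction, adjusted p = 0.00255, and 0.0482 without the filter). In that test of change, 1.28% of all genes rose and 0.424% fell, and Ms4a4c was the only one of the 4 tested members called. With the mouse number as a block Ms4a6c was called too (1.54, limma adjusted p = 0.0259). From 2 to 6 weeks the difference in Ms4a4c changed by -0.17 ± 0.20 (limma interaction, adjusted p = 0.954).

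Markers of monocytes moved with Ms4a4c at 2 weeks. The summed level of the 8 monocyte markers was 1.52 to 1.85 in the CKp25 mice and 0.120 to 0.593 in the CK mice. One of them was Plac8, found in 12.8% to 14.7% of the CKp25 cells against 0% to 2.17% of the CK cells. It was called higher by 0.92 ± 0.11. In every other group no mouse had Plac8 in more than 9.76% of cells, so its entry into the fit rests on the 2-week CKp25 mice. Ccr2, the chemokine receptor of classical monocytes, differed by 0.09 ± 0.11 (limma, adjusted p = 0.697). Of the 126 cells with Ms4a4c, 27 held Ccr2, which was found in 7.35% of all cells, and 31 held 3 or more markers of some other cell type. Of the 9 cells with 3 or more monocyte markers, 7 held Ms4a4c, but 9 held Ms4a6b, 9 Ms4a6c, 7 Ms4a6d and 5 Ms4a7. First wells, which have many more genes, are included here and made up 10 of the 126 cells with Ms4a4c. The median number of homeostatic microglia genes was 12 of 12 in cells with and without Ms4a4c. Without the cells that held 3 or more markers of any other cell type the difference in Ms4a4c was 0.84 at 2 weeks (adjusted p = 9.82e-05) and 0.73 at 6 weeks (adjusted p = 0.000272).

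Ms4a4b, the nearest relative of Ms4a4c and in other tissues a gene of T cells, showed no such signal. It was found in 5 of 2028 cells, and the highest mouse, CKp25 mouse 4 at 6 weeks, reached 2.47% of its cells. Over the weeks after induction its share of cells differed between the genotypes by 0.311 percentage points (exact permutation of mice within weeks, p = 0.5, 14000 arrangements). A search of the GENCODE vM21 transcripts showed how far the 2 genes could be mixed up in counting: 9.96% of the 40-base words of Ms4a4c transcripts also occur in Ms4a4b, and 3.69% of those of Ms4a4b occur in Ms4a4c. No source used here says how fragments that fit both were counted, so both levels are uncertain.

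The stretches before the start sites of this pair are printed because the genes share much of the sequence and differ in signal. They are the 250 bases before each RefSeq start site (GRCm38.p6, plus strand), Ms4a4c at chr19:11407411-11407660 and Ms4a4b at chr19:11443308-11443557. Capitals mark the letters GAGGAA, the core bound by the myeloid factor PU.1.
Ms4a4c: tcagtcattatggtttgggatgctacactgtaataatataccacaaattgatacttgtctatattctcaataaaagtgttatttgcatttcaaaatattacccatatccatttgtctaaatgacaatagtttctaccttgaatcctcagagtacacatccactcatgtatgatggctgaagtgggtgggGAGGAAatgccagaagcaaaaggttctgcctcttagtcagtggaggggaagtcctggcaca
Ms4a4b: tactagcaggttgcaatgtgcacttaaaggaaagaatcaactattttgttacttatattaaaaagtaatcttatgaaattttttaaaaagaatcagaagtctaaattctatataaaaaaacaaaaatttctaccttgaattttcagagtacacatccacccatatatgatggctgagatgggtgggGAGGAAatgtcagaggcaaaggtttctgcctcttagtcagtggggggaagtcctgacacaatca
The 2 sequences matched at 183 of 232 aligned bases (78.9%). Both carry GAGGAA at nearly the same place, its first base 61 bases before the start in Ms4a4c and 64 bases before it in Ms4a4b. On either strand this motif occurs in 23.3% of the 32851 stretches of the same length in the table. Neither sequence holds GAAANNGAA, the type of element bound by interferon regulatory factors, which occurs in 7.13% of all stretches, or the STAT type TTCNNNGAA, which occurs in 7.02%.

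Ms4a6c was the second member to rise. At 2 weeks its level was 2.46, 1.74 and 2.99 in CKp25 mice 1, 2 and 3 and 1.68, 0.96 and 1.08 in CK mice. The lowest CKp25 mouse lay just above the highest CK mouse, and the difference was 1.15 ± 0.32 (limma, adjusted p = 0.0153). At 6 weeks the level was 2.24, 2.23, 1.57 and 2.87 in CKp25 mice and 0.71, 0.43 and 0.93 in CK mice. The 2 groups stood well apart, with a difference of 1.54 ± 0.30 (limma, adjusted p = 0.000405). At 1 week the difference was -0.39 ± 0.32 (adjusted p = 0.580).

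The share of cells with Ms4a6c was 44.7%, 33.3% and 55.9% in the 2-week CKp25 mice and 33.3%, 27.1% and 22.8% in the CK mice, so the shares touched. At 6 weeks it was 34.1%, 40.4%, 30.8% and 49.4% against 11.4%, 10.6% and 22.0%, without overlap. The CK mice of 6 weeks were also lower than those before induction, by 0.61 ± 0.32 in level (limma, adjusted p = 1.00), which did not pass the threshold. A pseudocount of 10 gave differences of 0.59 and 0.79 at 2 and 6 weeks, and log2 of the mean FPKM gave 2.42 at 6 weeks. The 6-week call held under all 39 alternatives, while the 2-week call was lost under 6. These were the use of all cells (adjusted p = 0.114), log2 of the mean FPKM (0.152), no filter on low values (0.0611), and leaving out CK 2-week mouse 2 (0.0702), CK 2-week mouse 3 (0.0658) or CKp25 2-week mouse 3 (0.162).

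Ms4a6b, next but one to Ms4a6c on the chromosome, did not rise at either time. At 1 week it was lower in CKp25 mice, at 1.88, 1.29 and 1.22 against 2.61, 2.41 and 2.70 in CK mice, without overlap. The difference was -1.11 ± 0.32 (limma, adjusted p = 0.0345). Shares of cells were 30.2%, 21.6% and 19.4% against 33.3%, 37.9% and 39.8%. A pseudocount of 10 gave -0.67. The call was lost under 10 of 39 alternatives, where the adjusted p reached 0.189, and among these were the removal of CK 1-week mouse 1 (0.111), CK mouse 3 (0.116), CKp25 mouse 2 (0.189) or CKp25 mouse 3 (0.108). At 2 weeks the difference was -0.23 ± 0.32 (adjusted p = 0.751) and at 6 weeks 0.11 ± 0.30 (adjusted p = 0.909). The CK mice of 1 week were the highest of all groups for this gene, 0.63 ± 0.32 above CK mice before induction (adjusted p = 0.488).

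Ms4a6d, the most abundant member, passed the threshold in no comparison. Its differences had the largest standard errors of the 4, 0.44 to 0.47. At 2 weeks the CK mice stood at 1.78, 3.72 and 1.27 and the CKp25 mice at 2.82, 1.70 and 2.03, with a difference of -0.07 ± 0.47 (limma, adjusted p = 0.955). CK mouse 2 alone held the gene in 49.0% of its cells, against 26.0% and 19.6% in the other two, and without it the difference was 0.66. At 6 weeks the CKp25 mice stood at 2.87, 3.14, 2.31 and 2.71 and the CK mice at 1.77, 1.94 and 1.99. These did not overlap, and the difference of 0.86 ± 0.44 had an adjusted p of 0.339.

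**Figure D2:**
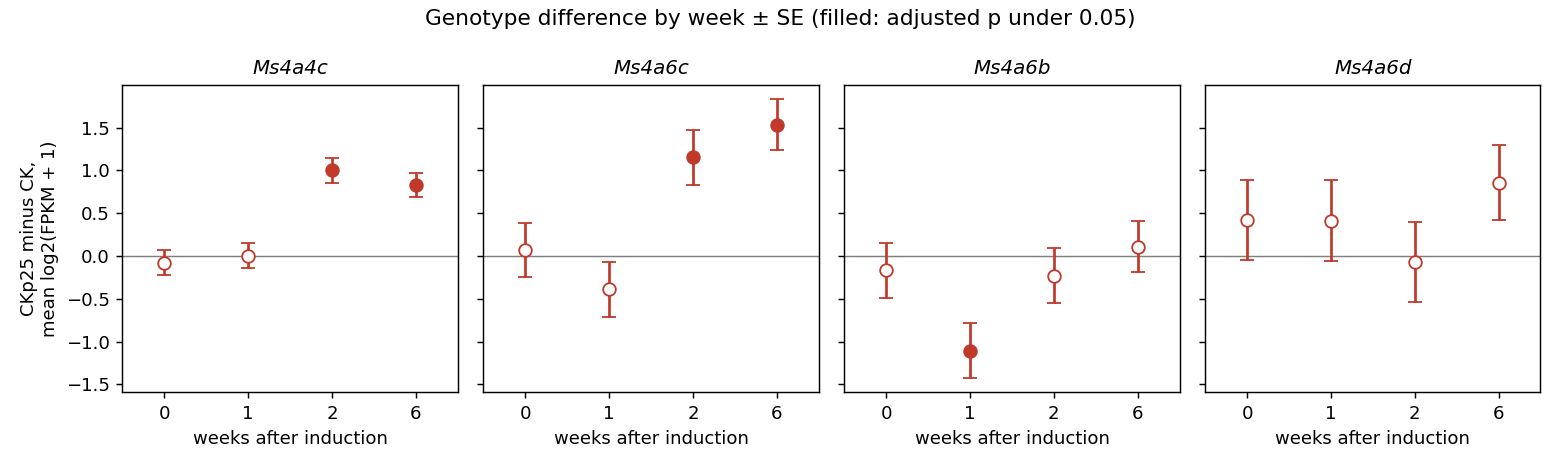
CKp25 minus CK level on the log2(FPKM + 1) scale, with bars of 1 standard error (limma), for the 4 tested genes at 0, 1, 2 and 6 weeks; filled points have an adjusted p under 0.05 over 9435 genes. Ms4a4c (1.00 and 0.83) and Ms4a6c (1.15 and 1.54) are filled at 2 and 6 weeks, Ms4a6b (-1.11) at 1 week, and Ms4a6d at no week.

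Set against the whole table, 1 member was called lower at 1 week, where 0.392% of genes were lower and 3.9% higher. At 2 weeks 2 members were higher, where 6.14% of genes were higher and 2.24% lower, and at 6 weeks 2 were higher, where 4.21% were higher and 1.54% lower. With quantile normalization of the mouse profiles the higher and lower genes numbered 283 and 119 at 1 week (368 and 37 without it), 528 and 344 at 2 weeks (579 and 211), and 531 and 357 at 6 weeks (397 and 145), with the same members called. No member was called in the change from 0 to 1 weeks (1.13% of genes) or from 2 to 6 weeks (0.0424%). In CK mice alone no member differed at 1, 2 or 6 weeks from 0 weeks by the limma test, nor did any gene (0% each time). There the number of genes at an unadjusted p under 0.05 was 986, 549 and 277, and of the 4 tested members only Ms4a6b, at 6 weeks, was among them (unadjusted p = 0.0385).

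Whether the members moved differently from one another was tested for all 6 pairs of the 4 tested genes. For each mouse the level of one gene was subtracted from that of the other, and mice were permuted within weeks 1, 2 and 6 together (exact, 2-sided, 14000 arrangements, adjusted over the 6 pairs). This test was added after the weekly values were seen. Ms4a6c moved above Ms4a6b by 1.18 on average over the 3 weeks (adjusted p = 0.00107). Ms4a4c moved above Ms4a6b by 1.02 (adjusted p = 0.00107), and Ms4a6d moved above Ms4a6b by 0.81 (adjusted p = 0.0154). The remaining pairs did not pass: Ms4a6c and Ms4a6d (0.37, adjusted p = 0.519), Ms4a4c and Ms4a6d (0.21, adjusted p = 0.608), and Ms4a4c and Ms4a6c (-0.16, adjusted p = 0.519). Each pair with Ms4a6b passed and no other pair did, and the measure does not say which gene of a pair moved. Ms4a6c minus Ms4a6b differed by 0.72, 1.38 and 1.43 at 1, 2 and 6 weeks, and the groups overlapped at 2 weeks. Ms4a4c minus Ms4a6b differed by 1.11, 1.23 and 0.72, without overlap. Ms4a6d minus Ms4a6b differed by 1.52, 0.16 and 0.75, with overlap at 2 weeks. At 1 week Ms4a4c itself differed by 0.00 and Ms4a6b by -1.11, a call lost under 10 of 39 alternatives. The mean over weeks hides changes of sign in the pairs that did not pass. Ms4a6c minus Ms4a6d differed by -0.80, 1.23 and 0.68 at 1, 2 and 6 weeks, and at 6 weeks all CKp25 mice lay above the CK mice. Ms4a4c minus Ms4a6c differed by 0.39, -0.15 and -0.71, and at 6 weeks all CKp25 mice lay below the CK mice.

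The sequences before Ms4a6c and Ms4a6b are shown for this reason. They are the 250 bases before the RefSeq start sites (GRCm38.p6, plus strand), Ms4a6c at chr19:11469118-11469367 and Ms4a6b at chr19:11518309-11518558, with GAAANNGAA in capitals.
Ms4a6c: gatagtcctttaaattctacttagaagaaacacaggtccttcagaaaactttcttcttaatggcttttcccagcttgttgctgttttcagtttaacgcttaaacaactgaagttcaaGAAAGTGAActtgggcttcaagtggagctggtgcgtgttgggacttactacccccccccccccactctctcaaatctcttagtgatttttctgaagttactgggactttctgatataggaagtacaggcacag
Ms4a6b: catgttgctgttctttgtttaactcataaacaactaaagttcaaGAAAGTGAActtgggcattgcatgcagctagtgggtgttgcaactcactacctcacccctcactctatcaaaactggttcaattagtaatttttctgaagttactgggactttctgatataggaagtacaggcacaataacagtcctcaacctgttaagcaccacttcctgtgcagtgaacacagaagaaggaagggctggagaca
Both hold the same letters, GAAAGTGAA, with the first base 133 bases before the start in Ms4a6c and 206 bases before it in Ms4a6b. They matched at 149 of 175 aligned bases (85.1%), and the longest identical run was 48 bases. Ms4a6c and Ms4a6b both hold these letters in this window, and Ms4a4c and Ms4a4b hold no GAAANNGAA there. Whether the element acts on any of these genes was not tested. Of the 7 members, 6 had a start site in the RefSeq table, Ms4a7 with 2 entries, and each Ms4a7 entry holds a GAAANNGAA match. In transcripts, 10.2% of the 40-base words of Ms4a6c also occur in Ms4a6b and 0.277% in Ms4a6d, so part of the fragments of Ms4a6c and Ms4a6b cannot be told apart by sequence.

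The cells that held a member also held different amounts of it. In cells with Ms4a6c, the median FPKM was 51.9, 36.3 and 47.7 in the 2-week CKp25 mice, above the 29.1, 8.16 and 20.9 of the CK mice. In cells with Ms4a6d it was 85.7, 55.0 and 73.1 at 2 weeks in CKp25 mice, below the 174, 207 and 98.8 of the CK mice. With 3 mice against 3, the exact permutation test gave p = 0.1 for each gene, the smallest value this design allows. At 1 week Ms4a6b was lower in the CKp25 cells that held it (79.7, 96.1 and 80.1 against 237, 113 and 143). So was Ms4a6d (195, 78.7 and 136 against 339, 246 and 245), each without overlap and with p = 0.1. The groups overlapped for Ms4a6c at 1 week (exact permutation, p = 0.6) and for Ms4a6b at 2 weeks (p = 0.3). The related gene Tmem176a was also lower without overlap at 1 week (group means 328 and 487), and overlapped at 2 weeks. Tmem176b was lower without overlap at 2 weeks (210 and 446), and overlapped at 1 week. How many of all genes separate in this way was not counted.

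At 6 weeks the groups overlapped for all 3 genes. Of the CKp25 mice, mouse 1 had the highest median for each of them (140 for Ms4a6c, 259 for Ms4a6b and 156 for Ms4a6d). CK mouse 1 had a median of 138 for Ms4a6c from 5 cells, and no other CK mouse of 6 weeks went above 16.9. These mice had the 2 lowest numbers of kept cells, 41 and 44, and CK mouse 1 had the lowest median number of genes per cell, 1537.5. The part of this in the result was not tested.

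**Figure D3:**
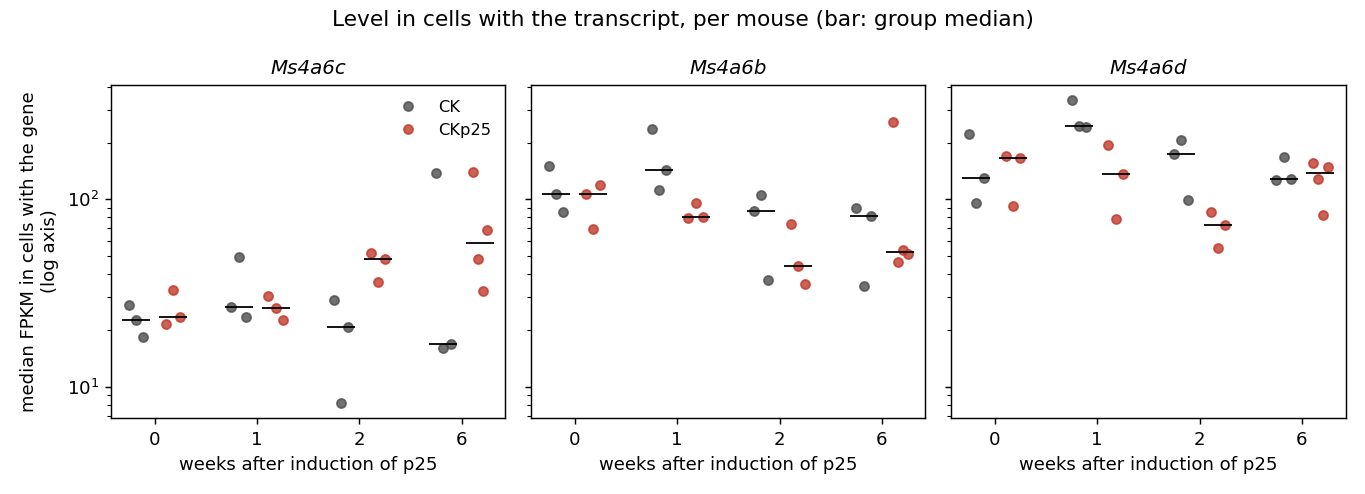
Median FPKM in the cells with the gene, per mouse (points, log axis), for Ms4a6c, Ms4a6b and Ms4a6d at each week in CK (grey) and CKp25 (red) mice, with the group median as a bar. At 2 weeks the CKp25 mice lie above the CK mice for Ms4a6c and below them for Ms4a6d, and at 6 weeks the groups overlap for all 3 genes.

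Ms4a7, a gene of border macrophages more than of parenchymal microglia, was too rare for the limma fit and was compared as a share of cells. At 6 weeks it was found in 7.32%, 7.02%, 5.77% and 9.88% of the cells of CKp25 mice and in 4.55%, 2.13% and 3.30% of those of CK mice. The groups did not overlap (exact permutation test, p = 0.0286, the smallest this design can give, adjusted p = 0.229 over 8 tests of Ms4a7 and Ms4a4b). At 2 weeks the shares were 5.32%, 3.13% and 7.35% against 1.04%, 0% and 3.26% (p = 0.2), and at 1 week 1.16%, 2.27% and 2.15% against 0%, 1.05% and 1.08% (p = 0.1). Before induction they were 1.11%, 1.19% and 5.81% against 6.67%, 2.08% and 2.27% (p = 0.5). Over weeks 1, 2 and 6 together the share was higher in CKp25 mice by 3.05 percentage points (exact permutation within weeks, p = 0.000357, 14000 arrangements), a test added after the weekly values were seen. Limma without the filter gave 0.32 ± 0.10 at 6 weeks (adjusted p = 0.155 over 22291 genes).

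The summed level of 10 border macrophage markers ranged over 3.57 to 5.93 in the 6-week CKp25 mice and over 4.53 to 5.94 in the CK mice. That list includes Stab1, found in 80.3% of all cells. By the 8 narrower markers, 15 cells with 2 or more and 216 others were counted in the 6-week CKp25 mice, against 6 and 176 in the CK mice. At 2 weeks the counts were 1 and 257 against 5 and 279. These are few cells with Ms4a7, 3, 4, 3 and 8 of them in the 6-week CKp25 mice. Of the 65 cells with Ms4a7, 36 held 2 or more border macrophage markers and 15 were first wells. With first wells left out, Ms4a7 was found in 23 of 45 cells with such markers (51.1%) and in 27 of 1958 cells without them (1.38%). In the same cells Ms4a6b was found in 66.7% against 26.7%, Ms4a6c in 62.2% against 28.5%, Ms4a6d in 51.1% against 32.3% and Ms4a4c in 5 of 45 cells against 5.67%. Ms4a7 was the member with the widest ratio between these cells.

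With the 60 cells of 2 or more border macrophage markers removed, a step added after the data were seen, the Ms4a7 share differed by 2.53 percentage points at 6 weeks (exact permutation p = 0.171) by 4.58 at 2 weeks (p = 0.1) and by 0.754 at 1 week (p = 0.4). Without all cells that held 3 or more markers of another type it differed by 2.31 at 6 weeks (exact permutation p = 0.143), 4.11 at 2 weeks (p = 0.1) and 0.407 at 1 week (p = 1), against 4.17, 3.83 and 1.15 with every kept cell. Over weeks 1, 2 and 6 it differed by 2.62 points without the border macrophage cells (exact permutation, p = 0.00171). Removal of those cells left the differences of Ms4a4c at 1.00 and 0.85 and those of Ms4a6c at 1.19 and 1.5 at 2 and 6 weeks, all 4 still called. The difference of Ms4a6b at 6 weeks turned from 0.11 to -0.01, neither of them called.

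**Figure D4:**
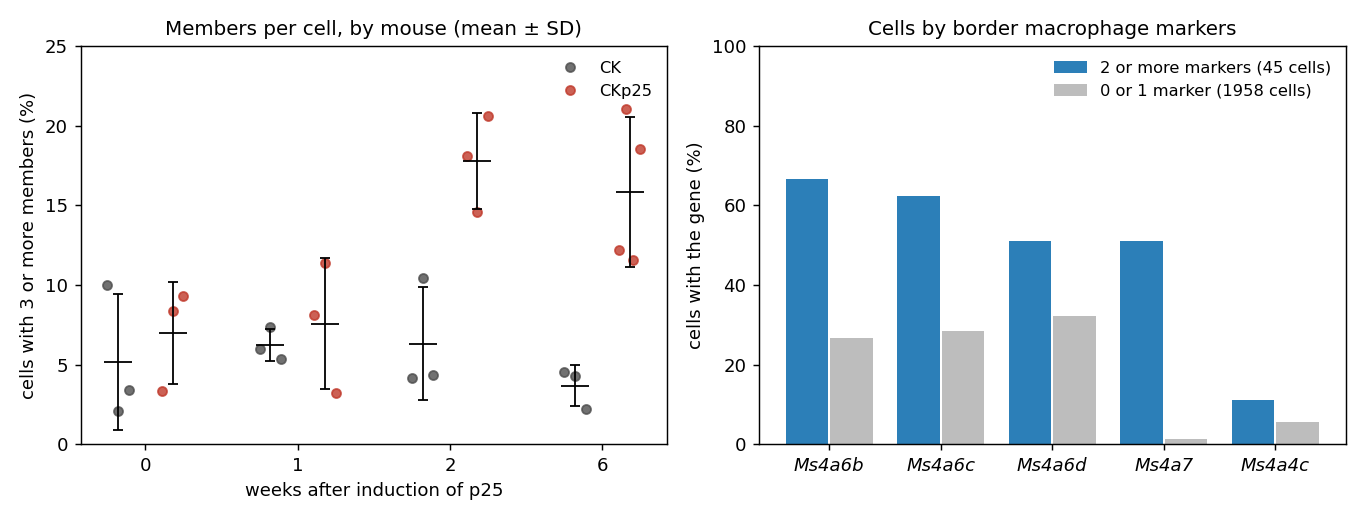
Left, the share of cells with 3 or more of the 6 Ms4a genes in each mouse (points) with the group mean and SD, by week and genotype. Right, the share of cells with each gene among 45 cells with 2 or more border macrophage markers (blue) and 1958 other cells (grey), first wells left out; Ms4a7 stands at 51.1% and 1.38%.

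Cells with several members became more common in CKp25 mice. Cells with 3 or more of the 6 genes made up 17.8% ± 3.02 (SD, n = 3 mice) of cells at 2 weeks against 6.31% ± 3.56 in CK mice, and 15.8% ± 4.70 (SD, n = 4 mice) at 6 weeks against 3.67% ± 1.28. Before induction the values were 6.99% ± 3.20 and 5.16% ± 4.24, and at 1 week 7.58% ± 4.1 and 6.23% ± 1.03. The lowest CKp25 mouse of 2 weeks, at 14.6%, lay above the highest CK mouse, at 10.4%. No test is given, since the count sums the members above.

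Within the CKp25 mice, cells with Ms4a4c were compared with cells without it, first wells left out. At 2 weeks Ms4a6c was found in 29 of 48 cells with Ms4a4c (60.4%) and in 39.1% of the 207 others, and Ms4a6b in 47.9% against 26.1%, each in the same direction in 3 of 3 mice. At 6 weeks Ms4a6b was found in 41.7% of 36 cells with Ms4a4c and in 17.8% of 191 others, in the same direction in 4 of 4 mice. For Ms4a6c the 6-week shares were 47.2% and 37.7%, with the same direction in only 1 of 4 mice. Cells with Ms4a4c also held more genes, a median of 3357 against 2663 at 2 weeks and 2536.5 against 2194 at 6 weeks, and the part of this in the shares was not tested.

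Irf7, a factor of the interferon response, was found in 91.7% of the 2-week cells with Ms4a4c and in 61.8% of the others. At 6 weeks it was found in 72.2% and 36.6%, higher in all 4 mice. Of 2 genes of activated microglia, Axl stood at 97.9% and 81.2% at 2 weeks, higher in 3 of 3 mice, and Cst7 at 75.0% and 70.5%, higher in 2 of 3. At 6 weeks Axl stood at 94.4% and 82.2% (3 of 4 mice) and Cst7 at 80.6% and 59.7% (4 of 4). Of the 11 cells with Ms4a7 at 2 weeks, all 11 held Ms4a6c, against 40.6% of the other cells, and at 6 weeks 13 of 15 did, against 35.8%. These counts are of cells and carry no test over mice. Cells with Ms4a4c held more genes, as given above, and the part of this in the shares of Irf7, Axl and Cst7 was not tested. With first wells included, 1 CKp25 cell with Ms4a7 at 2 weeks and 10 at 6 weeks held 2 or more border macrophage markers.

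Across the 25 mice, the non-member genes whose levels were most like that of Ms4a4c were Oas2 (Pearson r = 0.98), Sp100 (0.97) and Ifi204 (0.97). For Ms4a6c they were H2-Q4 (0.89), Slfn5 (0.86) and Helz2 (0.85). For Ms4a6b they were Parn (0.82), Smndc1 (0.81) and Arhgap4 (0.81), and for Ms4a6d Cox19 (0.76), Frrs1 (0.76) and Clec5a (0.75). These were the highest of 9435 genes and are given as a description, since mice of a group share genotype and age and all genes of a mouse share its cells. Between members, r was 0.83 for Ms4a4c and Ms4a6c and 0.00 for Ms4a6c and Ms4a6b. After subtraction of group means these became 0.58 and -0.06, while Ms4a6b and Ms4a6d went from 0.31 to 0.73.

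The other genes of the family and its relatives were either too rare to test or not called. Of 12 further symbols, 11 had a row and 2 passed the filter, Tmem176a and Tmem176b, relatives of the Ms4a proteins found on the membranes of myeloid and dendritic cells. They were found in 48.9% and 71.2% of cells, more than any member. Neither was called in any comparison. Tmem176b had its largest difference at 2 weeks, -1.65 ± 0.56 (limma, adjusted p = 0.0561), and stood at -1.42 ± 0.56 at 1 week (adjusted p = 0.155). Ms4a15 was found in 90 cells (4.44%), Ms4a1 in 6 cells, and the IgE receptor chain Ms4a2 in 4. Ms4a8a was found in 3 cells, Ms4a3 in 2, Ms4a5, Ms4a10 and Ms4a18 in 1 each, and Ms4a13 in 0 of 2028. Of the neighbours inside the stretch, Gm8369 was found in 27 cells and Ms4a4d in 4.

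Of 7 reported partners of Ms4a proteins, 5 were tested, and 1 was called higher at 2 weeks and at 6 weeks and none at 1 week. It was Clec7a, the beta-glucan receptor Dectin-1, with differences of 4.14 ± 0.35 (limma, adjusted p = 8.66e-12) and 4.35 ± 0.33 (adjusted p = 3.46e-13). Trem2, a lipid-sensing receptor of microglia, differed by -0.23 ± 0.47 and 0.37 ± 0.44 (adjusted p = 0.837 and 0.771), and its adaptor Tyrobp by 0.82 ± 0.50 and 0.76 ± 0.47 (adjusted p = 0.383 and 0.475). The median difference of the 5 was 0.82 at 2 weeks and 0.76 at 6 weeks, against 0.00 and -0.04 over all genes. Over all genes 3.9%, 6.14% and 4.21% were called higher at 1, 2 and 6 weeks. Clec7a is also among the genes of phagocytic and lipid-handling activation counted below.

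Interferon genes rose at the same times as Ms4a4c and Ms4a6c. Of 20 type I interferon response genes, all tested, 20 were higher at 2 weeks and 18 at 6 weeks, and none was called at 0 or 1 week. Their median difference was 2.60 at 2 weeks and 1.70 at 6 weeks. Over all genes 6.14% were higher at 2 weeks and 4.21% at 6 weeks. Irf7 was found in at most 4.55% of the cells of any CK mouse, so it passed the filter through CKp25 mice, as Ms4a4c did. For the other interferon genes this was not counted. Ifit2 rose by 3.04 ± 0.25 and 1.67 ± 0.24, and Irf7 by 4.37 ± 0.43 and 2.61 ± 0.40. Of 16 genes of phagocytic and lipid-handling activation, 15 were tested, and 3, 14 and 12 were higher at 1, 2 and 6 weeks. Their medians were 0.74, 2.11 and 1.67, and over all genes 3.9%, 6.14% and 4.21% were higher. These 16 genes were found in 1.53% to 99.95% of all kept cells. How many of them passed the filter only through CKp25 mice was not counted. Of 12 homeostatic microglia genes, 1, 8 and 6 were lower at the same times, with medians of -1.04, -1.69 and -1.27. Over all genes 0.392%, 2.24% and 1.54% were lower.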

How the data were processed

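The values were FPKM deposited by the authors for 23951 genes in 2208 samples. Cufflinks 2.2 and the build mm9 are named, per the submitters' processing notes. The name of the deposited table gives TopHat as the aligner, and no source used here gives its version, the annotation or the strand setting. Of all values 90.0% were 0, and Gapdh was at 0 in 24.6% of samples, so a 0 is read only as listed at 0. FPKM keep no depth, and no counting interval was computed. Columns of no sample numbered 0.

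The mouse was the replicate. Profiles were means of log2(FPKM + 1) over cells in which 1000 genes or more reached an FPKM of 1. Genes in at least 10% of cells of at least 3 mice (9435) entered limma 3.58.1 (R 4.3.3, trend and robust, 8 groups, 17 residual degrees of freedom, threshold 0.05). Separate rearing of the mice is not stated, so p-values measure the spread between these mice. Rarer members were compared as shares of cells by exact 2-sided permutation. Doublets were not called. Alternatives were other pseudocounts (0.1 and 10), filters, cells, scalings, a covariate, a replicate block and each mouse left out. The same replicate numbers are not stated to pair mice.

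The named genes were the members, the list of other Ms4a genes, the 3 genes most like each tested member, and up to 4 genes of each other list by smallest p; Trem2, Tyrobp, Ccr2, Axl, Stab1, Cst7 and Irf7 were named for their role, after their values were seen. Members and lists were chosen with earlier results of these data known. Python 3.11.15, pandas 2.3.3 and Biopython 1.88 were used, and sequences are RefSeq's (GRCm38.p6).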

Additional observations from a re-analysis of the deposited data

Results flagged for a closer look

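The difference between CKp25 and CK mice in Ms4a4c was not the same at 1 and 2 weeks: it grew by 1.00 ± 0.21 (limma interaction, adjusted p = 0.00255, and 0.0482 in the fit without the filter on low values).

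Among the 4 CKp25 mice of 6 weeks, 1 mouse stood apart from the other 3 for Ms4a6b and for Ms4a4b. Mouse 2 had a Ms4a6b level of 1.60, against 1.27 to 1.31 in the others. Mouse 4 had a Ms4a4b level of 0.0778 and the gene in 2.47% of its cells, which is 2 cells, against 0 in the others. A mouse can stand apart in this way by chance, and how often this occurs over all genes was not counted. For Ms4a4b, with the other 3 mice at 0, any value above 0 stands apart.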

How the results depend on the processing

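The counts of called members at 0 and 6 weeks, in CK mice over time, and in the change from 0 to 1 and from 2 to 6 weeks kept their values of 0, 2, 0, 0 and 0 under every alternative run. The 1 member called at 1 week (Ms4a6b) became 0 with all cells, at least 2000 genes per cell, log2 of the mean FPKM, no filter, the groups of that week only, or a pseudocount of 0.1. The 2 called at 2 weeks became 1 with all cells, log2 of the mean FPKM, or no filter, which tests 22291 genes. The 1 called for the change from 1 to 2 weeks (Ms4a4c) became 0 with log2 of the mean FPKM, where its difference was 3.64 (adjusted p = 0.0907). With single mice left out the 3 counts ranged from 0 to 1, 1 to 2 and 1 to 2. For the last, Ms4a6c was added without CK 1-week mouse 2 (adjusted p = 0.0397), CK 2-week mouse 1 (0.0460) or CKp25 2-week mouse 2 (0.0136). Other causes were not tested.

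The mouse number as a replicate block added Ms4a6c to that change (count 2, difference 1.54, adjusted p = 0.0259 against 0.0728 without it) and changed no other member's call. Same-numbered mice correlated in their deviations by 0.116 to 0.22 at 0 weeks and 0.0191 to 0.256 at 1 week. At 2 weeks these values were 0.0788 to 0.348 and at 6 weeks -0.119 to 0.136. The highest value of each CK mouse with a differently numbered CKp25 mouse was -0.112 to 0.00479 at 0 weeks and 0.0222 to 0.221 at 1 week. At 2 weeks it was -0.156 to 0.135 and at 6 weeks -0.0203 to 0.13. All 3 same-numbered pairs exceeded it at 0 weeks, and only some did at each later week. No source used here says whether a number marks mice handled together, so the main fit leaves it out and a pairing remains possible.

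Only differences short of the threshold changed sign. For Ms4a4c at 1 week they became -0.0037 without first wells, -0.40 with log2 of the mean FPKM, -0.00027 with the median number of genes as a covariate, -0.0097 with a pseudocount of 10, -0.042 with quantile normalization, -0.023 without border macrophage cells and -0.018 without other marker cells. For Ms4a6b they became 0.17 at 0 weeks with at least 2000 genes and, at 6 weeks, -0.017 with all cells, -0.0085 without border macrophage cells and -0.12 without other marker cells. For Ms4a6c at 0 weeks the value was -0.12, and for Ms4a6d at 1 week -0.31, with log2 of the mean FPKM. For Ms4a6d at 2 weeks it was 0.27 with at least 2000 genes and 0.054 with a pseudocount of 0.1. With single mice left out, the ranges were -0.011 to 0.031 for Ms4a4c at 1 week, -0.38 to 0.10 and -0.52 to 0.16 for Ms4a6b at 0 and 2 weeks, -0.13 to 0.23 for Ms4a6c at 0 weeks, and -0.037 to 0.73 and -0.57 to 0.66 for Ms4a6d at 0 and 2 weeks. Log2 of the mean FPKM moved the median of all genes to -0.35 at 2 weeks.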
